A study of Mus musculus with 6 samples.

Results

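The genes described here encode the transforming growth factor-beta (TGF-beta) ligands Tgfb1, Tgfb2 and Tgfb3, the receptors Tgfbr1, Tgfbr2 and Tgfbr3, the latent complex protein Ltbp1, the signal transducer Smad3, the feedback inhibitor Smad7 and the TGF-beta-induced matrix protein Tgfbi. They were chosen by name, with earlier results of these data known. All 10 were found among the 55401 genes of the count table and among the 22318 genes tested. Poly(A)-selected RNA was sequenced from Schwann cells (SCs) cultured from dorsal root ganglia of adult C57BL/6 mice, with 3 libraries labelled WT and 3 labelled PB1 -/-, the knockout of the guidance receptor Plexin-B1 (gene Plxnb1). The knockout allele is a constitutive gene trap carrying a transmembrane-lacZ-neo cassette, so Plxnb1 was disrupted in every cell of the animal and not only in SCs. Both groups were grown in medium with 2 µM forskolin, 10 nM neuregulin and 10% fetal bovine serum, depleted of Thy1-positive fibroblasts with magnetic beads, and used at passages 3 to 5 with a stated purity above 80%. The study's methods allow heterozygous littermates as controls in general, and the labels give these controls as WT. The labels do not say which cultures came from separate animals, so p-values measure only the spread between these libraries.

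TGF-beta ligands are secreted as latent dimers, held by latent TGF-beta binding proteins on fibrillin and fibronectin fibres and released by integrins and proteases. The active ligand binds the type II receptor Tgfbr2, which phosphorylates the type I receptor Tgfbr1, and this in turn phosphorylates Smad2 and Smad3, which enter the nucleus with Smad4. Tgfbr3 (betaglycan) is a co-receptor that presents ligand, the Tgfb2 protein above all. Smad7 is induced by the pathway and turns the receptors off. In peripheral nerve, TGF-beta acts on SC proliferation, on the response of SCs to injury and on the making of matrix.

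Total counts ranged from 59252048 to 77280964 per library. Plxnb1 itself was at 61.8, 45.4 and 96.4 CPM (read counts scaled to library size and composition) in the WT libraries and at 13.1, 16.6 and 18.6 CPM in the knockout libraries, 23.6% of the WT level (log2 fold change -2.08 ± 0.25 SE, edgeR adjusted p = 0.0449). WT replicate 2 and knockout replicate 3 lay farthest apart on the first principal component of all tested genes, at 47.4 and -34, whereas the other 4 libraries lay between -14.1 and 7.52. Each is the outermost library of its group there, so leaving both out tends to narrow the differences between the groups. On the second component WT replicate 1 lay apart, at -39.1, with the others between -5.33 and 24.8. Of the 10 genes, 6 had their highest level in WT replicate 2 and 5 their lowest level in knockout replicate 3, against 25.1% and 18.5% of all tested genes. Values without these libraries are given for many of the results below.

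The stretches of DNA directly upstream of 4 of the genes are shown because these genes differed in opposite directions between the genotypes. Tgfb1, Tgfb2 and Tgfbr2 had a lower mean in the knockout and Tgfbi a higher one. The sequences are the RefSeq promoters of build GRCm38.p6, 5′ to 3′ on the gene's own strand, ended before the annotated start of the gene. Capitals mark the letters CAGAC, the SMAD box, or their reverse complement GTCTG. The promoter table held an entry for 7 of the 10 genes.
Tgfb1 (chr7:25686752-25687001, plus strand): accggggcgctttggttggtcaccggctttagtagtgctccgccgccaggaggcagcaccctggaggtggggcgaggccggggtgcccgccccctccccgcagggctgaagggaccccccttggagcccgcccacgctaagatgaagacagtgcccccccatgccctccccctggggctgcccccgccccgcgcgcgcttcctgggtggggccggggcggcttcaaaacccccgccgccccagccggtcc
Tgfb2 (chr1:186705990-186706239, minus strand): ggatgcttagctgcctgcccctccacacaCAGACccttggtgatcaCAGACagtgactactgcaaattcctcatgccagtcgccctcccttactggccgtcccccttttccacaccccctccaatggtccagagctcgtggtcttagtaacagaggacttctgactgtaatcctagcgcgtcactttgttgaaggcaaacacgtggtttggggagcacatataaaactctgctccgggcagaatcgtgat
Tgfbr2 (chr9:116175364-116175613, minus strand): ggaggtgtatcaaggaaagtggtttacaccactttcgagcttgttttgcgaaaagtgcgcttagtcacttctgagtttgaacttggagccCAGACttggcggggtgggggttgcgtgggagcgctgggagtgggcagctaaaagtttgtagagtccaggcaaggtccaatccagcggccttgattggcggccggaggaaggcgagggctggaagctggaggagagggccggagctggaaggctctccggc
Tgfbi (chr13:56609336-56609522, plus strand): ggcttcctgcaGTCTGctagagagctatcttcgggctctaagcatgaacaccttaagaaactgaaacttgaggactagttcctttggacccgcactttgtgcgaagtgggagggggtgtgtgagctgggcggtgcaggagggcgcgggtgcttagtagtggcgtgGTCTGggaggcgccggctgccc
The Tgfb2 and Tgfbi stretches each held 2 SMAD boxes, that of Tgfbr2 held 1 and that of Tgfb1 none. Of all 32841 promoters of 300 bases in the table, 49.6% held at least 1 such match on either strand, so its presence does not set these genes apart. Tgfb1 was the most GC-rich of the 4 stretches, at 75.2%, against 53.6% for Tgfb2, 58.4% for Tgfbr2 and 59.4% for Tgfbi. Its 300-base promoter held 6 matches to GGGCGG, the core of the Sp1 GC box, which 35.7% of all promoters contained. The AP-1 motif TGANTCA and the TEAD motif CATTCC, in 7.81% and 14.7% of all promoters, matched none of the members' promoters in the table. Of the members' promoters, that of Tgfb2 alone held the E-box CACGTG, which 7.15% of all promoters held. Matches to the half-site CGTCA of the cyclic AMP response element, present in 20.8% of all promoters, were found once in Tgfb2 and on each strand of one of the Ltbp1 promoters. The 2 Ltbp1 matches overlap, as the 2 strands of the palindrome TGACGTCA. All motifs were searched on both strands.

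The SC cultures expressed the whole set, and bulk RNA does not show which of their cells did. Per kilobase of merged exons, the WT means were highest for Tgfb3 at 46.3 ± 5.40 CPM per kb (SD, n = 3), Tgfb1 at 42.7 ± 7.10 and Tgfbi at 42.5 ± 1.75, followed by Tgfbr2 at 36.9 ± 4.83. These 4 genes overlapped with their neighbours in the order and stood above 93.2% or more of all tested genes. Below them came Smad3 at 15.9 ± 0.630, Tgfbr1 at 15.7 ± 1.86 and Tgfbr3 at 13.1 ± 1.61 CPM per kb, each overlapping with the next in this order, then Smad7 at 9.53 ± 0.445 and Ltbp1 at 9.08 ± 0.870, which also overlapped. Tgfb2 was the lowest, at 6.15 ± 0.628 CPM per kb. In the knockout the means of Tgfb3 and Tgfb1 were 36.9 ± 3.01 and 34.0 ± 4.09 CPM per kb and that of Tgfbi was 51.9 ± 5.34, so that Tgfbi held the first place. The mean of Tgfbr3 was 18.0 ± 2.13 CPM per kb in the knockout, next to Smad3 at 16.8 ± 0.633 and Tgfbr1 at 15.4 ± 1.20.

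**Figure D1:**
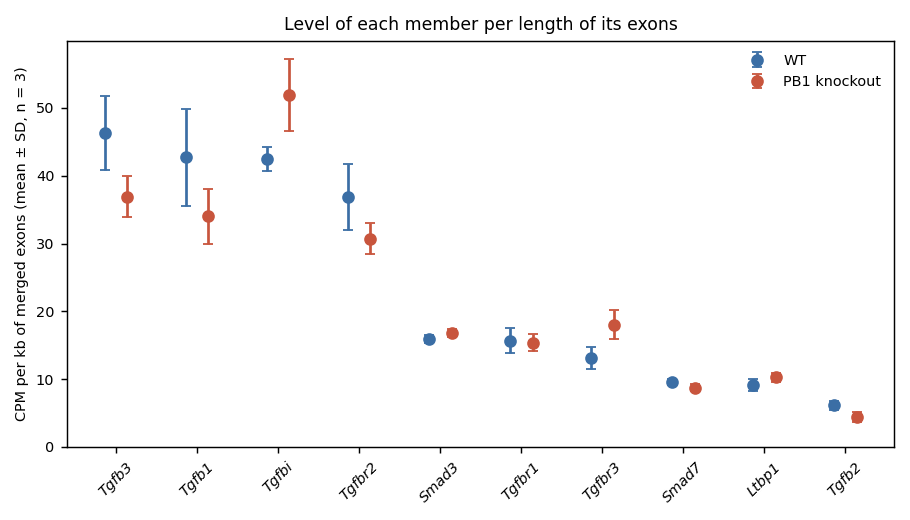
Mean level of each gene in CPM per kilobase of merged exons, with the SD over 3 libraries as bars, in WT (blue) and PB1 knockout (red) SCs, ordered by the WT mean. Tgfb3, Tgfb1, Tgfbi and Tgfbr2 lie well above the rest in both genotypes, and Tgfb2 is the lowest in both.

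The comparison of the knockout with WT asks whether loss of Plexin-B1 goes with a different level of these genes. The mean levels of the ligands Tgfb1, Tgfb2 and Tgfb3 and of the receptor Tgfbr2 were lower in the knockout by 0.27 to 0.48 on the log2 scale, and those of the co-receptor Tgfbr3 and the matrix protein Tgfbi were higher, by 0.46 and 0.29. For these 6 genes the 3 knockout libraries lay outside the range of the WT libraries, as did 19.7% of all tested genes (10.4% below and 9.30% above the WT range). None of the 10 genes was called by the edgeR quasi-likelihood test, with a cutoff of 0.05 on the adjusted p and of 0.25 on the size of the log2 fold change, which called 0.0358% of all tested genes. Their adjusted p-values ran from 0.266 to 0.937. At an unadjusted p below 0.05 there were 7 of the 10 genes, 4 lower and 3 higher, against 13.7% of all tested genes (6.78% lower and 6.95% higher). Without WT replicate 2 and knockout replicate 3 there were 4, 2 lower and 2 higher, against 5.92% of all tested genes. DESeq2 with the same cutoffs called 4, Tgfb2 and Tgfb3 as lower and Tgfbr3 and Tgfbi as higher, where it called 1.50% of all tested genes (0.807% lower and 0.695% higher). edgeR without the filter on low counts called the same 4, and 0.949% of all genes, and limma on log2(FPKM + 0.1) called 0. The median log2 fold change of the 10 genes was -0.07, and that of all tested genes 0.00. The 10 genes and the gene lists below were chosen with earlier results of these data known. Their counts beside the shares of all tested genes are therefore no independent support for a difference.

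**Figure D2:**
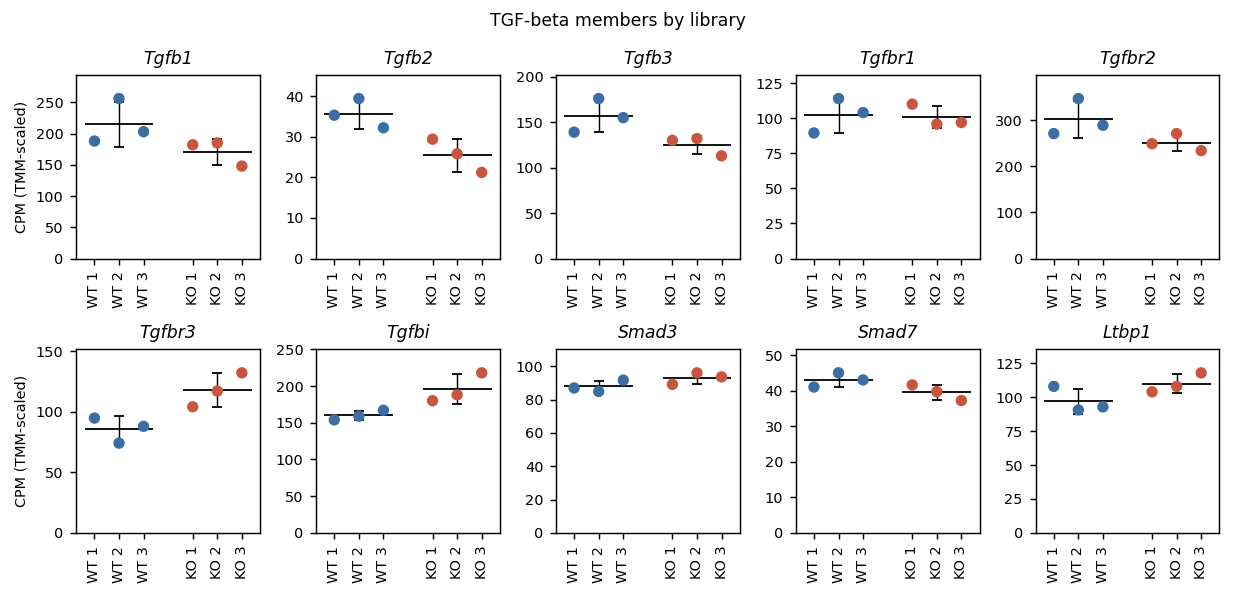
Level of each gene in CPM in every library, with the axis from 0, blue for WT and red for PB1 knockout (KO). Horizontal lines give the group mean and bars the SD over 3 libraries. The knockout points lie below the WT points for Tgfb1, Tgfb2, Tgfb3 and, barely, Tgfbr2, and above them for Tgfbr3 and Tgfbi.

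Among the ligands, Tgfb2 (chromosome 1, 186622792 to 186705989, minus strand) showed the largest difference. It was at 35.3, 39.4 and 32.2 CPM in the WT libraries and at 29.4, 25.8 and 21.2 CPM in the knockout libraries. Every knockout value lay below every WT value, and the fitted knockout level was 71.5% of WT (log2 fold change -0.48 ± 0.12 SE, adjusted p = 0.266 with edgeR and 0.00639 with DESeq2). Tgfb3 (chromosome 12, 86056745 to 86079041, minus strand), the ligand with the highest level per length, was at 139, 176 and 155 CPM in WT and at 130, 132 and 113 CPM in the knockout. The groups were apart here too, and the knockout level was 79.7% of WT (log2 fold change -0.33 ± 0.09 SE, adjusted p = 0.273 with edgeR and 0.0284 with DESeq2). Tgfb1 (chromosome 7, 25687002 to 25705077, plus strand), the best studied ligand in nerve, was at 188, 256 and 203 CPM in WT and at 182, 185 and 148 CPM in the knockout. Its highest WT value stood well above the other two and its groups were separated by a small gap, from 185 to 188 CPM (log2 fold change -0.33 ± 0.12 SE, adjusted p = 0.306 with edgeR and 0.106 with DESeq2). Without WT replicate 2 the difference of Tgfb1 was -0.18, that of Tgfb2 -0.40 and that of Tgfb3 -0.23 on the log2 scale. Without knockout replicate 3 they were -0.23, -0.37 and -0.26. Without both libraries they were -0.09, -0.29 and -0.17.

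The summed level of the 3 ligands was 84.5, 110 and 91.6 CPM per kb in WT and 79.5, 80.1 and 66.4 CPM per kb in the knockout. All knockout libraries were below all WT libraries in this sum, which follows from the same order in each of the 3 ligands. The mix of ligands differed less than their sum. Tgfb3 made up 48.8% ± 1.31 (SD, n = 3) of ligand transcripts per length in WT and 49.1% ± 1.13 in the knockout, and Tgfb1 44.8% ± 1.37 and 45.1% ± 0.879. Tgfb2 made up 6.50% ± 0.618 in WT and 5.82% ± 0.489 in the knockout, with 7.20, 6.22 and 6.07% in the WT libraries and 6.38, 5.56 and 5.51% in the knockout libraries, which overlapped. In a two-sided exact permutation test over the libraries the difference in share had p = 0.300 for Tgfb2 and p = 0.800 for both Tgfb1 and Tgfb3 (0.800 for each after adjustment over the 3 shares), where 3 against 3 libraries cannot go below 0.1.

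The means of the receptors Tgfbr2 and Tgfbr3 differed in opposite directions. Tgfbr2 (chromosome 9, 116084293 to 116175360, minus strand), the ligand-binding type II receptor, was at 271, 347 and 289 CPM in WT and at 249, 271 and 234 CPM in the knockout. The lowest WT and the highest knockout value nearly touched, and WT replicate 2 stood high (log2 fold change -0.27 ± 0.09 SE, adjusted p = 0.294 with edgeR and 0.105 with DESeq2). Without WT replicate 2 the difference was -0.15, and without that library and knockout replicate 3 it was -0.11. Tgfbr2 lies 6.96 Mb from Plxnb1 on the same chromosome. Of the 269 tested genes within 10 Mb of Plxnb1, 26.8% had an unadjusted p below 0.05, against 13.7% of all tested genes. Their means were lower in the knockout for 42 and higher for 30. Without both libraries these counts were 36 and 18, against 5.92% of all tested genes in that fit (2.87% with a lower mean). The genotype at Plxnb1 and the linked stretch of chromosome therefore cannot be told apart for Tgfbr2. Smad3 is on the same chromosome too, at 45.3 Mb. So are Tpm1, Smad6, Tagln, Thy1 and Cnn1, named below, at 42.0, 45.1, 63.2, 65.0 and 87.0 Mb from Plxnb1.

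Tgfbr3 (chromosome 5, 107106570 to 107289629, minus strand), the co-receptor betaglycan, was at 94.7, 74.0 and 87.9 CPM in WT and at 104, 117 and 132 CPM in the knockout. All 3 knockout libraries were above all WT libraries, and the knockout level was 138% of WT (log2 fold change 0.46 ± 0.10 SE, adjusted p = 0.266 with edgeR and 0.00268 with DESeq2). The difference was 0.37 without WT replicate 2 and also 0.37 without knockout replicate 3, and 0.28 without both. Tgfbr1 (chromosome 4, 47353222 to 47414931, plus strand), the type I receptor kinase, was at 89.5, 114 and 104 CPM in WT and at 110, 95.8 and 96.9 CPM in the knockout. Its groups overlapped fully (log2 fold change -0.02 ± 0.09 SE, adjusted p = 0.937 with edgeR), and the sign of this small difference changed to 0.06 without WT replicate 2 and to 0.09 without both libraries. The ratio of Tgfbr3 to Tgfbr2, both per length, was a comparison chosen after their values were seen. It was 0.437, 0.267 and 0.381 in WT and 0.523, 0.541 and 0.706 in the knockout, higher in every knockout library.

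Tgfbi (chromosome 13, 56609523 to 56639562, plus strand), a secreted adhesion protein named for its induction by TGF-beta, was at 154, 159 and 167 CPM in WT and at 180, 188 and 218 CPM in the knockout. The WT libraries lay close together and the knockout libraries all above them (log2 fold change 0.29 ± 0.07 SE, adjusted p = 0.273 with edgeR and 0.0214 with DESeq2). The difference was 0.20 without knockout replicate 3, the highest library, and 0.29 without WT replicate 2. Ltbp1 (chromosome 17, 75005568 to 75392512, plus strand), which tethers the latent ligand to matrix, was at 108, 90.6 and 92.9 CPM in WT and at 104, 108 and 118 CPM in the knockout. Its groups overlapped (log2 fold change 0.18 ± 0.07 SE, adjusted p = 0.339 with edgeR), and the difference was 0.08 without both libraries. Smad3 (chromosome 9, 63646767 to 63757994, minus strand) ranged from 84.9 to 91.7 CPM in WT and from 89.2 to 96.1 CPM in the knockout (log2 fold change 0.08 ± 0.05 SE, edgeR adjusted p = 0.479). Smad7 (chromosome 18, 75367529 to 75395935, plus strand) ranged from 41.1 to 45.1 CPM and from 37.3 to 41.7 CPM (log2 fold change -0.12 ± 0.06 SE, edgeR adjusted p = 0.381), a difference of -0.05 without both libraries. Both overlapped between the groups and had the smallest spread over the 6 libraries of the 10 genes.

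**Figure D3:**
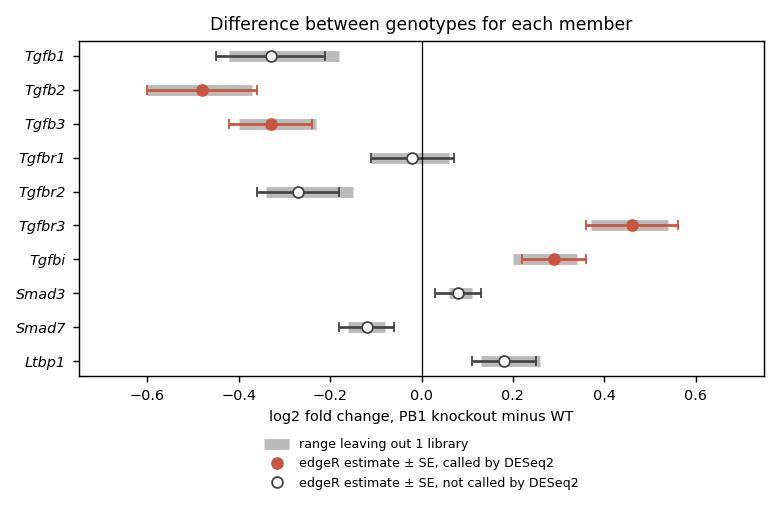
Log2 fold change of each gene, knockout minus WT, as the edgeR estimate with its standard error (points and thin bars) and the range of estimates when 1 library at a time was left out (grey). Filled red points are the 4 genes called by DESeq2. Tgfbr1 is the only gene of the 10 whose grey range crosses 0.

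Some of these transcripts share exon bases with other annotated genes. Tgfbr3 shares 297 exon bases, 4.54% of its exons, with Gm43422 on the same strand, which had 213 to 450 counts against at least 4334 for Tgfbr3. Tgfb3 shares 4.82% of its exon bases with Gm37804 and 7.6% with Gm48008, and Tgfb2 2.14% with Gm29491, all on the opposite strand. Larger shares, also with genes on the opposite strand, are found for some pathway genes named below. They are 62.42% for Tagln (Gm48529), 52.09% for Ldlrad4 (Fam210a), 23.24% for Ccn2 (Gm15270) and 20.14% for Fbn1 (Gm9913). The strand setting of the counting is not given in the sources used here, so reads in these overlaps may have been left out or split.

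In the patterns over the 6 libraries, measured as the root mean square (RMS) difference of log2 CPM centred on each gene's mean, Tgfb1, Tgfb3 and Tgfbr2 lay close to each other. Tgfbr2 was the nearest of the 10 genes to Tgfb3, at 0.053, and Tgfb3 the nearest to Tgfb1, at 0.058, where Tgfb1, Tgfb3 and Tgfbr2 themselves varied with SDs of 0.26, 0.22 and 0.20. Among 14975 other genes with a mean of at least 1 CPM, the most similar were Adgrd1 and Snx24 for Tgfb1 (0.016 and 0.027), Rab27b and D430036J16Rik for Tgfb2 (0.038 and 0.053), and Creb3l1 and Pdia5 for Tgfb3 (0.027 and 0.030). They were Scara3 and Ddit3 for Tgfbr2 (0.016 and 0.023), Cdh5 and 4932442E05Rik for Tgfbr1 (0.034 and 0.038), and Art3 and Gm43422, the overlapping transcript above, for Tgfbr3 (0.024 and 0.033). Those of Tgfbi were Parp10 and Gm26724 (0.043 and 0.044) and those of Ltbp1 were Reep2 and Spag5 (0.024 and 0.025). Smad3 was nearest to Ppp6r2 and Zfp523 (0.011 for each) and Smad7 to Dhx33 and Gpr180 (0.0078 and 0.012), 4 genes that, like these Smads, differed little over the libraries. With only 6 libraries and this many genes, close matches are frequent.

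Genes known to respond to TGF-beta mostly had lower means in the knockout. Of 34 such genes, all tested, 23 had an unadjusted p below 0.05 and a lower mean (67.6%, against 6.78% of all tested genes) and 0 had such a p and a higher mean, with a median log2 fold change of -0.23. This list holds none of the 10 genes above. It thus leaves out Tgfbi and Smad7, both induced by TGF-beta, with log2 fold changes of 0.29 and -0.12. edgeR called 0 of the 34, and DESeq2 called 10, all lower, where it called 0.807% of all tested genes as lower. The list was chosen with earlier results of these data known, and the study had reported lower Col1a1, Fn1 and Tnc in these cells. These counts are therefore no independent support for a shift of TGF-beta response genes. The largest difference was in Eln, the elastin of elastic fibres, at 333, 317 and 277 CPM in WT and at 145, 200 and 99.5 CPM in the knockout (log2 fold change -1.06 ± 0.20 SE, adjusted p = 0.235 with edgeR and 0.0217 with DESeq2). The contractile genes Cnn1 (calponin), Acta2 (smooth muscle actin), Tagln (transgelin) and Tpm1 (tropomyosin) had log2 fold changes of -0.44 ± 0.08, -0.42 ± 0.12, -0.23 ± 0.07 and -0.21 ± 0.04 SE. Cnn1 was at 32.7, 37.9 and 32.8 CPM in WT and at 27.1, 25.5 and 23.5 CPM in the knockout, and had the smallest p of the list. The matrix genes Tnc (tenascin C), Fn1 (fibronectin) and Col1a1 (type I collagen) had log2 fold changes of -0.28 ± 0.06, -0.31 ± 0.09 and -0.30 ± 0.08 SE. Ccn2, the matrix protein CTGF, had -0.34 ± 0.12. Of these 9 named genes DESeq2 called Eln, Cnn1, Acta2, Tnc, Fn1 and Col1a1. The log2 fold changes of Acta2, Tagln, Fn1, Col1a1 and Ccn2 were -0.26, -0.14, -0.18, -0.19 and -0.19 without WT replicate 2, and that of Eln was -1.04. Without both libraries that of Ccn2 was -0.09 and those of Eln and Cnn1 were -0.82 and -0.32.

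The feedback genes of the pathway differed little between the genotypes. Pmepa1, which binds Smads and limits their activation, was at 1160, 1180 and 1193 CPM in WT and at 1170, 1200 and 1166 CPM in the knockout (log2 fold change 0.00 ± 0.04 SE). Skil, a repressor of Smad-driven transcription that the pathway induces, differed by 0.01 ± 0.06 and Ldlrad4, a further inhibitor of Smad activation, by -0.05 ± 0.04 on the log2 scale. For all of these, as for Smad7, the groups overlapped. Among 20 Smads, co-factors and inhibitors, of which Skil, Pmepa1 and Ldlrad4 are also on the response list, 1 had an unadjusted p below 0.05, Smad6, an inhibitory Smad of the BMP branch, at 12.4, 10.5 and 11.1 CPM in WT and at 14.7, 13.6 and 12.7 CPM in the knockout (log2 fold change 0.27 ± 0.08 SE, edgeR adjusted p = 0.289). The median of this list was 0.01. Smad2 and Smad4, the partners of Smad3, differed by 0.05 ± 0.04 and -0.06 ± 0.04, and the next smallest p-values belonged to Usp15, Trim33 and Smad5 with -0.08 ± 0.05, 0.10 ± 0.06 and 0.07 ± 0.04.

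**Figure D4:**
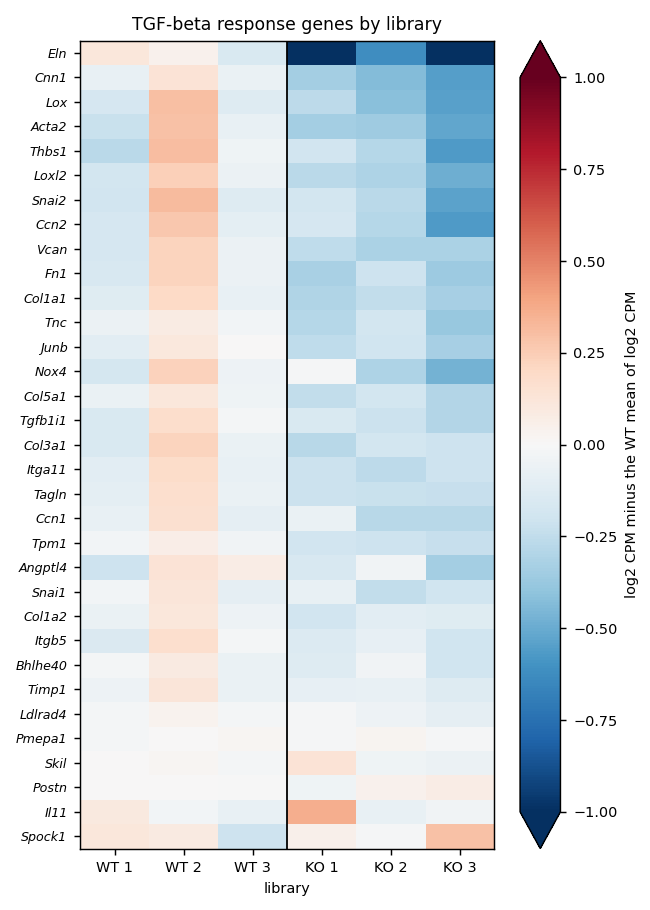
Level of 33 of the 34 TGF-beta response genes in each library, as log2 CPM minus the WT mean of log2 CPM (colour scale, cut at -1 and 1), ordered by log2 fold change from Eln at the top. WT replicate 2 is the reddest column and knockout replicate 3 the bluest for most of the matrix and contractile genes, whereas Pmepa1, Skil, Ldlrad4 and Postn stay near white in nearly all libraries.

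Of the response genes, 28 of 34 were highest in WT replicate 2 and 26 lowest in knockout replicate 3. Without WT replicate 2, 17 of 34 had an unadjusted p below 0.05 and a lower mean, against 3.99% of all tested genes. Without both libraries the count was 15, against 2.87%. Fibroblasts make many of the same matrix genes, and their markers had mostly lower means too: 9 of 10 had a lower mean in the knockout, 3 with an unadjusted p below 0.05, Thy1, Pdgfra and Col3a1 (30.0%, against 6.78%). The fibroblast count was 3 without WT replicate 2 as well and 4 without both libraries, against the same 3.99% and 2.87% of all tested genes. The summed level of the 10 fibroblast markers was 6176 to 8154 CPM in WT and 5857 to 6115 CPM in the knockout, but without Col3a1, which is also a response gene, it was 1449 to 2024 and 1490 to 1518 CPM, overlapping. None of the fibroblast markers was at 0 in any library. Of 15 SC markers 14 had a higher mean in the knockout, 9 with an unadjusted p below 0.05 (against 6.95% of all tested genes). The count of 9 became 7 without WT replicate 2 and 3 without both libraries. In those fits 8.99% and 5.92% of all tested genes had such a p in either direction. Their sum was 4080 to 4728 CPM in WT and 4701 to 5187 CPM in the knockout. The 8 mural cell markers summed to 1323 to 1783 and 1133 to 1253 CPM, with Acta2, itself a response gene, as their largest part, and the 8 macrophage and leukocyte markers to 42.3 to 48.0 and 49.5 to 58.0 CPM. The 8 neuron markers summed to 153 to 167 and 168 to 192 CPM, mostly from Tubb3, and the 6 endothelial markers to 63.9 to 83.5 and 68.0 to 74.0 CPM. On the 32 response genes that are on no marker list, 21 had an unadjusted p below 0.05 and a lower mean (65.6%, against 6.78%). These 32 still include matrix genes such as Col1a1 and Fn1, so this count is no test of culture makeup. The part of culture makeup in the differences above was not tested, and in bulk RNA fewer cells of a type and less RNA per cell cannot be told apart.

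Genes for storage and activation of the latent ligand were mixed. Of 24, 23 were tested, and 8 had an unadjusted p below 0.05 and a lower mean (34.8%, against 6.78%) and 1 a higher mean, Itgb8. The median was -0.10, edgeR called 0 and DESeq2 called 3, where DESeq2 called 1.50% of all tested genes. The count of 8 became 5 without WT replicate 2 and 3 without both libraries, against 3.99% and 2.87% of all tested genes. Itgb8, the integrin subunit that with Itgav releases active TGF-beta from its latent complex, was at 615, 477 and 619 CPM in WT and at 690, 694 and 735 CPM in the knockout (log2 fold change 0.31 ± 0.09 SE, adjusted p = 0.283 with edgeR and 0.0461 with DESeq2). Itgav overlapped between the groups (0.12 ± 0.07). Fbn1, the fibrillin on which latent complexes are stored, was at 1818, 2455 and 1984 CPM in WT and at 1678, 1737 and 1646 CPM in the knockout (-0.31 ± 0.10 SE). The proteases Plau (urokinase) and Mmp9, which can free latent ligand, had -0.45 ± 0.12 and -0.87 ± 0.24 SE and were called by DESeq2 (adjusted p = 0.0149 and 0.00967), Mmp9 at only 3.61 to 10.5 CPM. Ltbp3 and Ltbp4 each differed by 0.06, with SEs of 0.05 and 0.06. Leaving out WT replicate 2, the log2 fold changes of Itgb8, Fbn1, Plau and Mmp9 were 0.20, -0.17, -0.31 and -0.57, and that of Itgav was 0.05. Without both libraries those of the first 4 were 0.17, -0.15, -0.21 and -0.48.

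The other receptors and ligands of the superfamily included genes of the BMP and activin branches. Of 13 tested receptors and co-receptors, 4 had an unadjusted p below 0.05 (30.8%, against 13.7%), and neither edgeR nor DESeq2 called any. That count became 0 without WT replicate 2 and 0 without both libraries, against 8.99% and 5.92% of all tested genes. Bmpr1b, a type I BMP receptor, had a log2 fold change of -0.48 ± 0.16, Eng, the co-receptor endoglin, -0.30 ± 0.12, Acvr1 -0.10 ± 0.04 and the activin receptor Acvr1b 0.16 ± 0.06. Acvrl1 differed by -0.01 ± 0.06. Without WT replicate 2 the values of Bmpr1b and Eng were -0.29 and -0.16, and without both libraries they were -0.19 and -0.10, with Acvr1b at 0.10. Of 18 other ligands and antagonists, 5 had an unadjusted p below 0.05, all with a lower mean (27.8%, against 6.78%), and the median was -0.12. The count was 5 without WT replicate 2 as well and 3 without both libraries, against 3.99% and 2.87% of all tested genes. Bmp7 was at 7.47, 10.1 and 9.05 CPM in WT and at 6.38, 6.76 and 5.11 CPM in the knockout, and DESeq2 called it, alone in this list (log2 fold change -0.54 ± 0.13 SE, adjusted p = 0.273 with edgeR and 0.0145 with DESeq2). Bmp6 was at 22.4, 41.0 and 27.3 CPM and at 18.9, 19.9 and 17.6 CPM, with WT replicate 2 far above the rest (-0.68 ± 0.19 SE). Inhba and Inhbb, which encode activin subunits, had -0.33 ± 0.11 and -0.16 ± 0.05. The difference of Bmp6 was -0.40 without WT replicate 2, and without both libraries those of Bmp6, Bmp7 and Inhba were -0.36, -0.33 and -0.17.

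**Figure D5:**
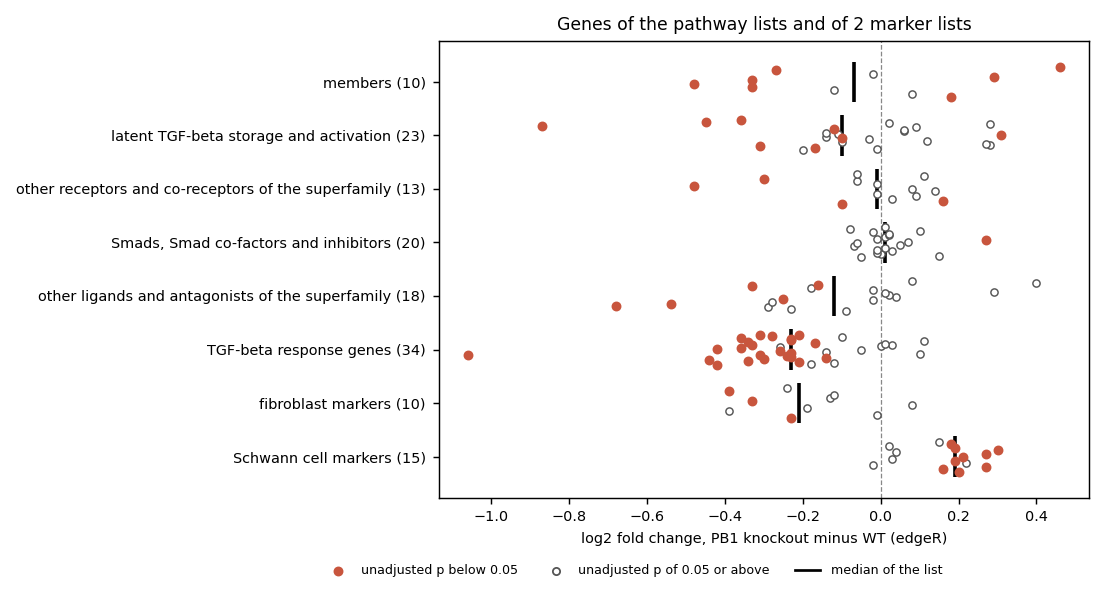
Log2 fold change, knockout minus WT, of every tested gene of the pathway lists and of the fibroblast and SC marker lists, with the number tested in brackets. Filled red points have an unadjusted edgeR p below 0.05 and black lines mark the medians, -0.23 for the response genes, 0.01 for the Smads and their co-factors, -0.21 for the fibroblast markers and 0.19 for the SC markers.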

How the data were processed

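Libraries were made with the TruSeq Stranded mRNA kit and sequenced on a NovaSeq X. Per the labels and the study's methods, the authors trimmed reads with Trim Galore 0.6.5, aligned them to mm10 with Bowtie2 2.4.1, removed duplicates with SAMtools 1.10 and counted exonic reads per gene with featureCounts on GENCODE vM25, and deposited the raw counts per gene. Removing duplicates lowers the counts of highly expressed genes the most. The deposited FPKM values, used only as an alternative, equalled the counts divided by the whole gene span within 0.5% for 99.4% of genes with at least 50 counts, so levels per length were computed here from merged exons (GENCODE vM21, GRCm38, which holds 55141 of 55401 IDs).

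Genes that reached 2 counts in 5 or more of the 6 libraries were tested with the edgeR 4.0.16 quasi-likelihood test (TMM, no covariates, Benjamini-Hochberg over 22318 genes). The study's methods used DESeq2, run here in version 1.42.0 as an alternative, with limma 3.58.1 on log2(FPKM + pseudocount). Calls used cutoffs of 0.05 on the adjusted p and of 0.25 on the size of the log2 fold change. Every library was counted at 59252048 reads or more, and edgeR found 63 of 100 genes changed by 0.5 and 90 of 100 changed by 1 on the log2 scale in data simulated for this comparison with 21751 genes. The changed genes were drawn from well-counted genes, and the simulated libraries had no shared shifts like those of WT replicate 2 and knockout replicate 3. Smaller changes were not simulated, so these counts do not give the power for the 10 genes. Ligand shares were compared with exact permutation tests. Named were all 10 members, up to 4 genes per pathway list with the smallest p, a fixed set of pathway genes and, per member, the 2 genes with the most similar pattern. A gene of the response list is counted but not reported by name here. The members and lists were chosen with earlier results of these data known. The alternatives were other scalings, filters and tools, a replicate block and the omission of each library. Leaving out the pair of libraries that stood apart on the first principal component and edgeR's newer estimate were added after seeing the data.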

Additional observations from a re-analysis of the deposited data

How the results depend on the processing

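Of 160 log2 fold changes of the 10 genes under 16 alternatives, 148 kept their direction and their side of the call. DESeq2 and edgeR with no filter on low counts each called 4 genes in place of 0, Tgfb2, Tgfb3, Tgfbr3 and Tgfbi, where they called 1.50% and 0.949% of all genes. The direction turned for Tgfbr1 alone (-0.02, with -0.11 to 0.06 when 1 library was left out), to 0.01 without knockout replicate 2, to 0.01 without knockout replicate 3, to 0.06 without WT replicate 2 and to 0.09 without both libraries that stand apart. The number of the 10 genes with an unadjusted p below 0.05, 7 in the reported fit, was 4 with limma on log2(FPKM + 0.1), 4 with limma on log2(FPKM + 1), 4 without both libraries that stand apart, and 4 to 8 when 1 library was left out, with the lowest count without knockout replicate 3. The number of response genes with a lower mean at that level, 23, was 14 and 13 with the same limma fits, 15 without both libraries and 15 to 26 when 1 library was left out, again lowest without knockout replicate 3. The cause of these differences was not tested.

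The difference in the Tgfb2 share of ligand transcripts, -0.680 percentage points, ran from -0.962 to -0.326 when 1 library was left out. That of the Tgfb3 share, 0.362, ran from -0.291 to 1.02, turned to -0.291 without WT replicate 2 and to -0.280 without knockout replicate 3, and was -0.933 without both libraries. With the replicate block, 7 of the 10 genes and 24 response genes had an unadjusted p below 0.05 and 0 of the 10 were called. The deviations of same-numbered libraries correlated at -0.0218, 0.00782 and 0.0653, against -0.053 to 0.0485 for differently numbered ones. These values gave no sign of pairing by number, and a shared preparation or batch was not tested. No scaling moved the median of all genes by more than 0.01.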
